A study of Mus musculus with 12 samples.

Results

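The BCL2 family decides whether a cell keeps its mitochondria intact or dies by the intrinsic route of apoptosis. The genes followed here are Bcl2, Bcl2l1, Bcl2l2 and Mcl1, which encode proteins that hold death back; Bax and Bak1, which encode the proteins that open the outer mitochondrial membrane; and Bcl2l11 (Bim), Bad, Bbc3 (Puma) and Pmaip1 (Noxa), which encode BH3-only proteins that set the death signal going. Every probe set of a mouse Affymetrix array whose annotation names 1 of these genes alone was taken. Of the 10 genes, 9 had such a probe set, giving 30 probe sets among the 45037 on the array that are not controls (18193 genes in all). The annotation used here names no probe set for Bax.

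RNA came from freshly sorted regulatory T cells (Tregs) of mice that had received no treatment. The genotypes, with 3 arrays each, were the knockout of both Ebi3 and Il10 (DKO), the knockout of Il10 (Il10_KO), the knockout of Ebi3 (Ebi3_KO) and wild type (WT). Tregs secrete the products of both genes: IL-10 from Il10, and IL-35, which has the Ebi3 protein as 1 of its chains. Replicate numbers equal the batch named in the labels, so each of the 3 batches holds 1 array of every genotype. The labels give no age, strain, sex or targeted allele and do not state how many animals the replicates came from, so p-values measure the spread between these samples, which may be technical.

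Tregs divide often and die readily, and their number in the body depends on the balance within this family. IL-2 signals through STAT5 to keep Bcl2 and Mcl1 up, and Treg survival in the mouse leans above all on Mcl1, with Bim as its main opponent. Each survival protein binds the BH3 segment of the death-promoting members, and when it is filled up, Bax and Bak1 are free to form pores and let cytochrome c out.

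Values are signals from the MAS5 algorithm, a background-corrected brightness scaled by array. Differences are of log2(signal + 20), which shrinks those of dim probe sets, and are given with their standard error (SE). A signal is comparable between arrays for 1 probe set but not between probe sets. A probe set was tested where it reached its array's 40th percentile, a signal of 35.5 to 52.8, on at least 3 arrays. This kept 24 of the 30 family probe sets: all 5 of Bcl2, all 6 of Mcl1, all 5 of Bcl2l11, both of Bad, the single ones of Bbc3 and Pmaip1, 2 of the 4 of Bcl2l1, 1 of the 4 of Bcl2l2 and 1 of the 2 of Bak1. The 6 left out had signals between 2.5 and 69.0 and passed that level on 2 arrays at most.

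The arrays were checked for what they hold. The Ebi3 probe set had signals of 3.0 to 72.5 on the arrays labelled as lacking Ebi3 and 1062.5 to 2057.3 on the others, while the Il10 probe set, at 184.5 to 2939.8, did not separate the genotypes and checks nothing. Foxp3, the defining transcription factor of Tregs, had signals of 4945 to 7955. Cd8a was at 74.0 to 654.2, with the highest of these in batch 3. Batch moved much of the array: a moderated F test (limma) called 41.8% of the 31235 tested probe sets different between batches, and 12 of the 24 family probe sets. WT replicate 1 stood apart in immediate-early genes, which respond within minutes to receptor signals or to handling. Their mean log2 level was 10.53 there against 11.70 to 12.80 on the other 11 arrays.

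The main fit (limma) had genotype alone. Because each batch holds all genotypes, the fit with batch as a further factor is given beside it, and all 95% intervals are from that fit. In the main fit 0 of the 24 family probe sets passed an adjusted p of 0.05 in any contrast. The share of all tested probe sets that passed was 0.0096% for DKO against WT, 0.0064% for Il10_KO against WT, 0.0032% for Ebi3_KO against WT, 0.0064% for DKO against Ebi3_KO and 0.0032% for DKO against Il10_KO. It was 0.0128% for the average difference by Il10 genotype (DKO and Il10_KO against Ebi3_KO and WT), 0.0032% for the average by Ebi3 genotype (DKO and Ebi3_KO against Il10_KO and WT) and 0% for the interaction of the knockouts. At an unadjusted p of 0.05, 1 of the 24 passed in DKO against WT (2.14% of all tested probe sets), 1 in Il10_KO against WT (1.98%), 1 in DKO against Ebi3_KO (1.39%) and 2 in the Il10 average (2.22%). The count was 0 in Ebi3_KO against WT (1.41% of all tested probe sets), DKO against Il10_KO (1.24%), the Ebi3 average (1.38%) and the interaction (1.28%).

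With batch in the model, 1 family probe set passed in DKO against WT, where the share over all tested probe sets was 0.0416%, and the same one in the Il10 average, where the share was 0.064%. It was Bcl2 1443837_x_at, lower in both. The limma count was 0 in Il10_KO against WT (0.0384% of all tested probe sets), in Ebi3_KO against WT (0.0032%), in DKO against Ebi3_KO (0.0192%), in DKO against Il10_KO (0.0032%), in the Ebi3 average (0.0064%) and in the interaction (0%). Unadjusted, with batch, 2 of the 24 passed in DKO against WT, or 8.33% beside 8.25% of all tested probe sets, and 3 in the Il10 average, or 12.5% beside 8.62%. The count was 2, again 8.33%, in Ebi3_KO against WT (5.31% of all tested probe sets), in DKO against Ebi3_KO (4.95%) and in the interaction (3.94%), and 0 in DKO against Il10_KO (3.49%) and the Ebi3 average (4.54%). In Il10_KO against WT 8 passed, 33.3% of the family probe sets beside 7.68% of all. They were 4 of Bcl2 and 1 each of Mcl1, Bcl2l11, Bad and Pmaip1, so probe sets of the same gene recur among them. The share of all includes dim probe sets, so the compared sets are unlike. This contrast also holds WT replicate 1, which had the lowest Pmaip1 signal of all arrays (308.5). The count is therefore not read as a result about the family. The contrasts share arrays with each other. The median difference over the 24 was -0.04 in DKO against WT and -0.04 in the Il10 average, beside 0.01 and 0.02 over all tested probe sets.

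Bcl2, the founding survival gene of the family, lies on chromosome 1. Its start region is shown because 1 of its 5 probe sets is the only family probe set that passed, in the fit with batch. The 300 bases run from 250 before to 50 after the start of the RefSeq gene (GRCm38.p6, chr1:106714241-106714540, minus strand), and 76% of them are G or C. Neither the FOXO motif GTAAACA nor the STAT motif TTCNNNGAA occurs in it on either strand.
Bcl2: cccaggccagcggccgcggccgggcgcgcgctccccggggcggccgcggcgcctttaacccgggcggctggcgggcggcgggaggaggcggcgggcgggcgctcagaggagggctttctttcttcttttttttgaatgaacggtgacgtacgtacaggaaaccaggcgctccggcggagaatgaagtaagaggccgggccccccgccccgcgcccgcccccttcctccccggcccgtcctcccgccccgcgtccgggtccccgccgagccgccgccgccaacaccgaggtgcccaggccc

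Bcl2 is reported by 5 probe sets, and they differed among themselves. Probe set 1443837_x_at had signals of 1042, 289.6 and 158 in the DKO arrays of batches 1, 2 and 3, and 1018.5, 338 and 268 in the Il10_KO arrays. It had 1837, 651 and 950.5 in the Ebi3_KO arrays and 2308, 886 and 1201 in the WT arrays. In 3 of 3 batches both arrays without Il10 lay below both arrays with it. The share of all tested probe sets that separate by Il10 genotype within every batch was not counted. Across batches the genotypes overlapped, since batch 1 was bright in every genotype.

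The DKO minus WT difference of 1443837_x_at was -1.82 on the log2 scale, 3.53-fold lower in DKO. Within batches 1, 2 and 3 it was -1.13, -1.55 and -2.78. Without a batch term the SE was 0.663 and the adjusted p was 1.00, so it did not pass. With batch in the model the SE was 0.273 and the adjusted p was 0.0351, and by this fit Bcl2 1443837_x_at fell in DKO cells. The average difference by Il10 genotype was -1.49, or 2.82-fold lower without Il10, with -0.99, -1.23 and -2.27 in the batches. Its SE was 0.469 with an adjusted p of 1.00 in the fit without batch, and 0.193 with an adjusted p of 0.00707 in the fit with it (95% interval -1.91 to -1.08). These are bulk arrays, where fewer cells that express a gene and less RNA per cell cannot be told apart.

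Il10_KO against WT gave -1.53 for the same probe set (adjusted p = 0.121 with batch), and DKO against Ebi3_KO gave -1.46 (adjusted p = 0.264 with batch). Every batch was below 0 in both. Ebi3_KO against WT gave -0.36 with a 95% interval of -0.95 to 0.23 (adjusted p = 0.936 with batch), and DKO against Il10_KO gave -0.29 with an interval of -0.88 to 0.30. The interaction of the knockouts was 0.07 with an interval of -0.76 to 0.90, which leaves room for a difference in either direction.

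The calls on 1443837_x_at rest on the batch term and on particular arrays. With batch as a random effect in place of a factor, the adjusted p was 0.150 in DKO against WT and 0.0732 in the Il10 average. The DKO against WT call, with batch as a factor, was lost without DKO replicate 2 (adjusted p = 0.120), DKO replicate 3 (0.230), WT replicate 2 (0.162), WT replicate 3 (0.149) or any of the Il10_KO arrays (0.0599 to 0.0677). Leaving out an Il10_KO array kept the difference at -1.82 and left fewer arrays to estimate the spread. Over its 22 alternatives the adjusted p ran between 0.0155 and 0.397. The Il10 average was called under 18 of 22, with the adjusted p between 0.00252 and 0.166. It was lost without Il10_KO replicate 3 (0.0514), without batch 2 (0.166), without batch 3 (0.154) and without the intensity trend in the variance (0.124). The difference itself was -1.75 to -1.11 under these alternatives. Il10_KO against WT passed in 1 of its 22, without DKO replicate 3 (0.0449), in a range of 0.0449 to 0.466.

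**Figure D1:**
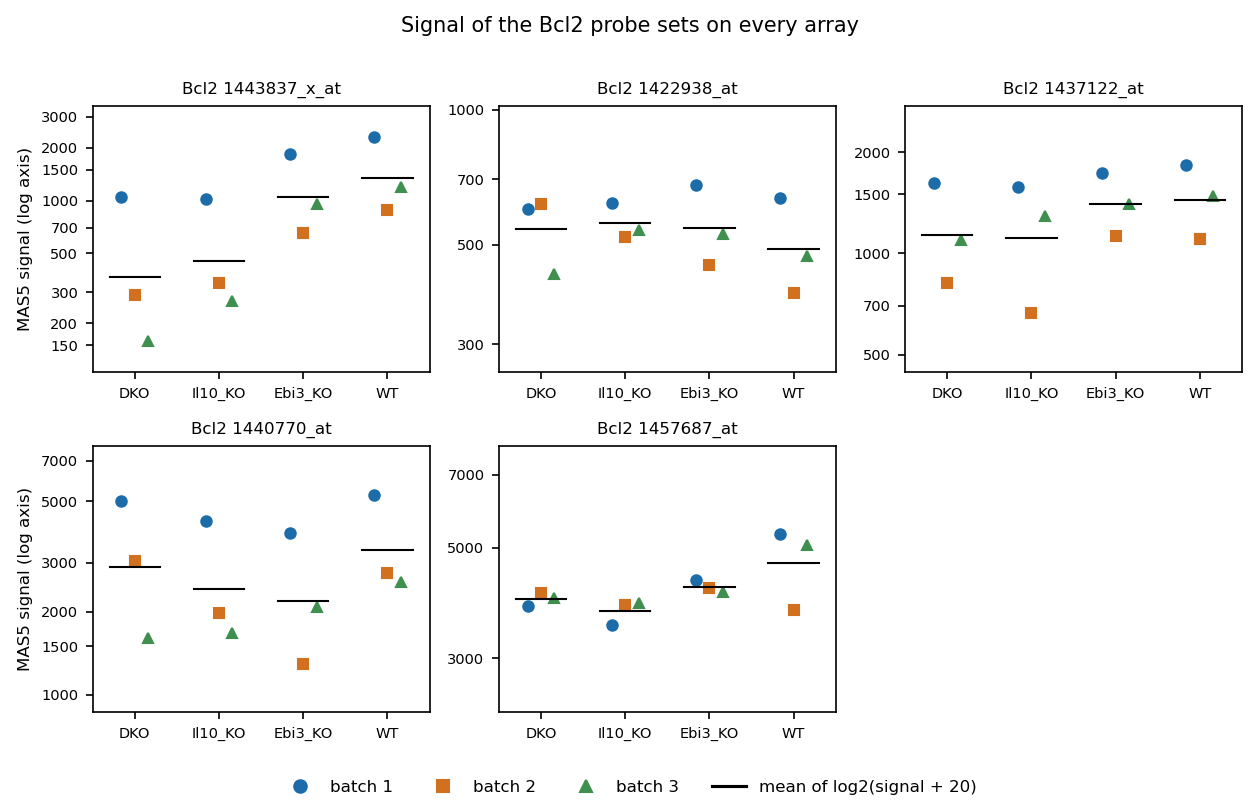
MAS5 signal (log axis) of the 5 Bcl2 probe sets on each of the 12 arrays, by genotype; symbols give the batch and bars the mean of log2(signal + 20). In 1443837_x_at both arrays without Il10 lie below both arrays with it in each batch, as they do by less in 1437122_at. The other 3 probe sets do not separate this way in every batch. The share of all tested probe sets that do was not counted.

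The other 4 Bcl2 probe sets showed much smaller average differences by Il10 genotype. Probe set 1440770_at had 4993, 3033 and 1610.3 in DKO, 4260.0, 1974 and 1677 in Il10_KO, 3839, 1297 and 2072 in Ebi3_KO, and 5282.5, 2757 and 2565 in WT. Batch 1 was highest in every genotype. The Il10 average was -0.03 (95% interval -0.35 to 0.30), the mean of -0.46 in Il10_KO against WT, below 0 in each batch, and 0.41 in DKO against Ebi3_KO, which was 0.38, 1.21 and -0.36 in the batches. Ebi3_KO minus WT was -0.61, also below 0 in each batch. The interaction was 0.87 (95% interval 0.22 to 1.53), with 0.69, 1.69 and 0.25 in the batches. The adjusted p-values with batch were 0.648, 0.935, 0.910 and 1.00 for Il10_KO against WT, DKO against Ebi3_KO, Ebi3_KO against WT and the interaction, so none passed.

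Probe set 1437122_at had 1621, 819 and 1097 in DKO, 1579, 664 and 1292 in Il10_KO, 1737, 1125 and 1398 in Ebi3_KO, and 1831, 1105 and 1481 in WT. Both arrays without Il10 were again below both arrays with it in every batch, but by little. As above, the share of all tested probe sets with this pattern was not counted. The Il10 average was -0.34, with -0.15, -0.58 and -0.27 in the batches, and the limma adjusted p with batch was 0.475. Probe set 1457687_at had 3821, 4062 and 3964 in DKO, 3508, 3845 and 3883 in Il10_KO, 4303, 4153 and 4067 in Ebi3_KO, and 5332, 3751 and 5061.5 in WT. Its DKO arrays all lay below its Ebi3_KO arrays, as in 1.82% of all tested probe sets, by a difference of -0.08 that did not pass (adjusted p = 0.975 with batch). The Il10 average was -0.20 (adjusted p = 0.608 with batch).

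Probe set 1422938_at had 601, 617 and 429.9 in DKO, 621, 521 and 538 in Il10_KO, 681, 451.5 and 529.6 in Ebi3_KO, and 637, 389.5 and 473 in WT. The genotypes overlapped, and the Il10 average was 0.09 (95% interval with batch -0.20 to 0.37).

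Agreement between the Bcl2 probe sets was tested directly, by asking for each of the 10 pairs whether the Il10 difference of 1 probe set differed from that of the other. The test was chosen with the values of 1443837_x_at already known. Arrays were permuted within batch in an exact, two-sided test. The 4 pairs that hold 1443837_x_at passed. Each had the smallest p the exact permutation test can give, 0.00926 (0.0231 after Benjamini-Hochberg adjustment over the 10 pairs). These pairs share 1 probe set picked for its difference, so they are not 4 independent results and give no separate support. The adjusted p is this low only because the 4 tie at the smallest p. The difference by Il10 genotype was 1.58 for 1422938_at minus 1443837_x_at, 1.47 for 1440770_at minus it and 1.16 for 1437122_at minus it. It was -1.30 for 1443837_x_at minus 1457687_at. The other 6 pairs had adjusted p-values of 0.0556 to 0.639 in the exact permutation test. No pair passed without WT replicate 1 or without Ebi3_KO replicate 1. Each probe set alone was permuted in the same way, with p-values not adjusted. This exact permutation gave 0.00926 for both 1443837_x_at and 1437122_at, the smallest p it can give. Any probe set that separates by Il10 genotype in every batch gets this p, so it only restates the separation. It gave 0.0556 for 1457687_at, 0.454 for 1422938_at and 0.917 for 1440770_at.

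**Figure D2:**
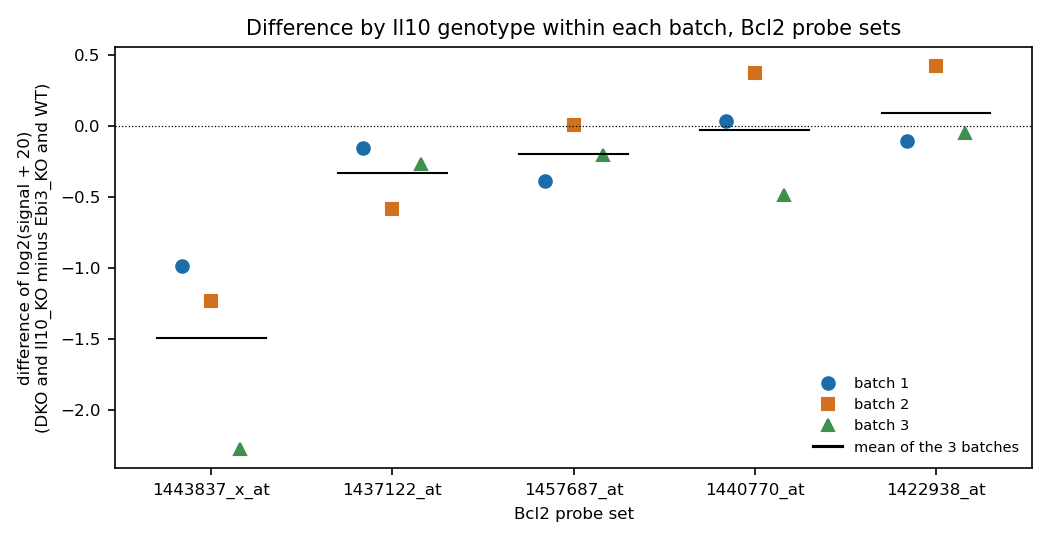
Difference of log2(signal + 20) between arrays without Il10 (DKO and Il10_KO) and arrays with it (Ebi3_KO and WT), within each of the 3 batches, for the 5 Bcl2 probe sets; bars are means of the 3 batches. Probe set 1443837_x_at lies at -0.99, -1.23 and -2.27, and the mean of the other 4 runs between -0.34 and 0.09.

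As a description over the 12 arrays, which share batches, the log2 values of Bcl2 probe sets correlated pair by pair at r = 0.144 to 0.743. Once the batch mean was removed, r ran between -0.382 and 0.760, with the highest value for 1443837_x_at and 1437122_at. The suffix x_at is the manufacturer's mark for a probe set some of whose probes also match other sequences. Which bases these probes target is not used here, so what sets 1443837_x_at apart was not tested.

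The genes whose pattern was most like 1443837_x_at, by Pearson r over the 12 arrays after the batch mean was removed, were Mcm6 (0.952), Tomm70a (0.943), Tfam (0.936), Dmtf1 (0.926) and Snrpe (0.926), out of 13890 genes. Without removal of the batch mean, r was 0.21 for Mcm6, -0.33 for Tomm70a, 0.05 for Tfam, 0.91 for Dmtf1 and 0.50 for Snrpe. Mcm6 encodes a subunit of the replication helicase and Tfam the factor that packs mitochondrial DNA. Mcm6 and Snrpe lie on chromosome 1, as Bcl2 does, and Tomm70a, Tfam and Dmtf1 on chromosomes 16, 10 and 5. Mcm6 also passed in the Il10 average with batch. Genotype differences were left in, so r includes the Il10 difference for which 1443837_x_at was picked.

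Chromosome position is given beside the Bcl2 result. Il10 and Bcl2 both lie on chromosome 1. In the Il10 average with batch, 20 probe sets passed, 17 of them with 1 gene symbol, and 12 of these belong to 10 genes of chromosome 1. In chromosome order these are Ap1s3, Ramp1, Stk25, Thap4, D2hgdh, Gin1, Bcl2, Mcm6, Ctse and Kdm5b. Bcl2 is number 7. The share of all tested probe sets that lie on chromosome 1 was not counted. The 4 nearest genes with a tested probe set on either side of Bcl2 were Phlpp1, Zcchc2, Tnfrsf11a and Relch at lower coordinates and Kdsr, Vps4b, Serpinb5 and Serpinb11 at higher ones. Their Il10 averages lay between -0.22 and 0.28, and 0 of the 8 passed (limma, with or without batch; 0 at an unadjusted p of 0.05 with batch). The part of position in the Bcl2 difference was not tested.

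Markers of other blood cells are given beside these differences. In the Il10 average, 7 of 7 measured myeloid markers were above 0 (median 0.32), as were 6 of 7 markers of CD8 T and NK cells (0.32), 7 of 8 of dendritic cells (0.37) and 6 of 7 of B cells (0.16), beside a median of 0.02 over all tested probe sets. The summed myeloid signal was 4426 to 47107 in DKO, 3064 to 47190.0 in Il10_KO, 3338 to 23802 in Ebi3_KO and 6002.5 to 31032 in WT. Their mean log2 level was highest in batch 3 in every genotype. That of CD8 T and NK markers was 2063 to 9043 in DKO, 2164 to 9081 in Il10_KO, 1786 to 4436 in Ebi3_KO and 1815 to 7325 in WT. That of dendritic cell markers was 10788 to 30483 in DKO, 10944 to 38972 in Il10_KO, 7501 to 23581 in Ebi3_KO and 6702 to 29031 in WT. That of B cell markers was 946 to 5339 in DKO, 1134.5 to 8851 in Il10_KO, 1257 to 4799 in Ebi3_KO and 2163 to 6536 in WT. None of these lists had a gene past the threshold (limma, either fit). Counts at an unadjusted p of 0.05 (limma) are for the Il10 average with batch. They were 2 of 7 for myeloid markers, 3 of 7 for CD8 T and NK cells, 3 of 8 for dendritic cells and 1 of 7 for B cells. The share over all tested probe sets, dim ones included, was 8.62%. Without batch the count was 0 in each of these lists. In DKO against WT, where 1443837_x_at also passed with batch, the medians were 0.07 for myeloid markers (5 of 7 above 0), -0.02 for CD8 T and NK cells (3 of 7), 0.42 for dendritic cells (8 of 8) and -0.34 for B cells (3 of 7). In Il10_KO against WT they were -0.06 (3 of 7), 0.26 (5 of 7), 0.59 (8 of 8) and 0.28 (5 of 7), in the same order. The difference of 1443837_x_at by Il10 genotype was -2.27 in batch 3, and -0.99 and -1.23 in batches 1 and 2. Mean log2 levels of myeloid, CD8 T and NK, and dendritic cell markers were each highest in batch 3 in every genotype. Those of B cell markers were highest there in every genotype but Ebi3_KO. The part of these markers in the size of the Bcl2 and Pmaip1 differences was not tested.

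Bcl2l1 encodes BCL-XL. Its probe set 1420888_at had 1164, 1736 and 1279 in DKO, 1005, 1539 and 1557 in Il10_KO, 1058, 1836 and 1458 in Ebi3_KO, and 1267, 1424.5 and 1354 in WT. The genotypes overlapped throughout. DKO minus WT was 0.03 with a 95% interval of -0.32 to 0.37, and the Il10 average was -0.03 with an interval of -0.27 to 0.22 (both with batch). The other tested Bcl2l1 probe set, 1420887_a_at, was dim, at 5.9 to 101.6, and passed the filter level on 7 arrays. Its Il10 average of 0.65 had an interval of -0.20 to 1.50.

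Bcl2l2 encodes BCL-W. Its tested probe set 1423572_at had 144, 137 and 231 in DKO, 119, 162.5 and 227 in Il10_KO, 134, 237 and 178 in Ebi3_KO, and 129.5, 173 and 206 in WT. Differences from WT were 0.00 in DKO, -0.02 in Il10_KO and 0.09 in Ebi3_KO, and the 95% interval in DKO was -0.52 to 0.51 with batch.

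Mcl1, the survival protein with the fastest turnover, was reported by 6 probe sets, and 0 of them passed in any contrast. Probe set 1448503_at had 19778, 18209 and 13628 in DKO, 20067, 20212 and 17290.0 in Il10_KO, 19251, 19859 and 16603 in Ebi3_KO, and 11668, 20240 and 12185 in WT. WT replicates 1 and 3 were the lowest arrays, and WT replicate 2 was the highest. The differences from WT were 0.26 in DKO, 0.43 in Il10_KO and 0.38 in Ebi3_KO, with adjusted p-values with batch of 0.685, 0.572 and 0.910. In batch 2 the same differences were -0.15, -0.00 and -0.03.

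Probe set 1416881_at had 3342, 3139 and 2880 in DKO, 4775, 3855 and 2764.5 in Il10_KO, 3471, 3997 and 2728 in Ebi3_KO, and 2466, 3321 and 3053 in WT. WT replicate 1 was again the lowest array. Probe set 1416880_at had 7829, 4235 and 8279 in DKO, 7558, 5176 and 8313 in Il10_KO, 8096.5, 4157 and 9807 in Ebi3_KO, and 9553.5, 4685 and 10454 in WT. Batch 2 was lowest in every genotype, and DKO minus WT was -0.26 with an interval of -0.53 to 0.02. The x_at probe sets 1437527, 1456243 and 1456381 had signals of 11925 to 21277, 11279 to 21460.3 and 8389.5 to 15799, each with batch 3 highest in all 4 genotypes.

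The Mcl1 probe sets were split into a pair and a set of 4 by the sign of their r with 1437527_x_at, batch mean removed. The r values within and across these groups are therefore not independent of the split. All the x_at probe sets are among the 4. With the batch mean removed, r over the 12 arrays was 0.582 between 1416881_at and 1448503_at and 0.599 to 0.935 among the other 4, while the 8 pairs across gave -0.607 to -0.217. The signs of the Il10 average followed: it was 0.12 and 0.15 for the pair and -0.18 to -0.13 for the 4, with adjusted p-values of 0.615 to 0.814 with batch. Genotype differences were left in these correlations, so the signs and the split are not independent. Ebi3_KO against WT did not split this way. The mean log2 of 1437527_x_at, 1 of the 4, was 14.00 in Ebi3_KO and 13.93 in WT, higher in Ebi3_KO as for the pair. The Il10 averages of this gene's probe sets thus did not share a sign, and none of them passed.

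**Figure D3:**
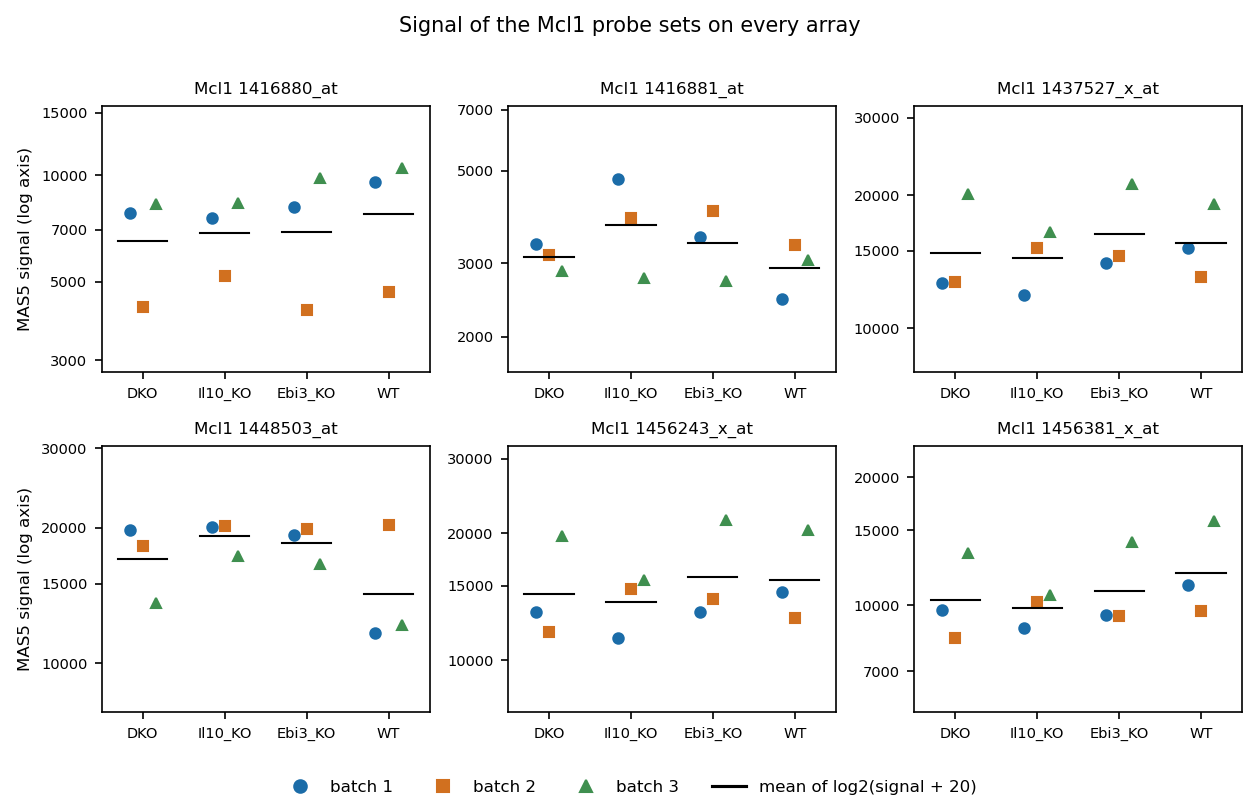
MAS5 signal (log axis) of the 6 Mcl1 probe sets on each of the 12 arrays, by genotype; symbols give the batch and bars the mean of log2(signal + 20). Batch 3 is highest within each genotype in the 3 x_at probe sets, and WT replicate 1, at 11668 and 2466, is the lowest array in 1448503_at and 1416881_at.

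Bak1, on chromosome 17 as Ebi3 is, encodes the pore-forming effector BAK. Its tested probe set 1418991_at had 223, 168 and 318 in DKO, 262, 189 and 334 in Il10_KO, 257, 374 and 242 in Ebi3_KO, and 301, 253 and 277 in WT. No genotype separated, and the Ebi3 average was -0.05 with an interval of -0.45 to 0.35. The 4 nearest tested genes on either side (Cuta, Phf1, Nkx2-5 and Bnip1, and Itpr3, Uqcc2, Lemd2 and Gm10505) had Ebi3 averages between -0.28 and 0.41, and 0 of the 8 passed (limma). At an unadjusted p of 0.05 with batch, Phf1 alone did. The second Bak1 probe set was among the 6 left out.

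The BH3-only genes Bcl2l11 and Bbc3 are induced by FOXO3 when survival signals are withdrawn, and Bbc3 and Pmaip1 by p53. Start regions were searched for GTAAACA, the core FOXO motif, on both strands. It occurs in 2 of the 15 RefSeq windows searched, which belong to 9 family genes, Bax among them. Pmaip1 and the other genes of its chromosome were not searched. Of 32851 windows of the same 300-base length, 3.65% hold it. The STAT motif TTCNNNGAA occurs in 0 of the 15, beside 8.30% of all. The windows with a FOXO match are printed with the match in capitals, on the plus strand of GRCm38.p6: Bcl2l11 at chr2:128125788-128126087, with its first capital at base 24, and Bbc3 at chr7:16310011-16310310, with its first at base 84 and the motif on the opposite strand. A match is a run of letters and says nothing of binding.
Bcl2l11: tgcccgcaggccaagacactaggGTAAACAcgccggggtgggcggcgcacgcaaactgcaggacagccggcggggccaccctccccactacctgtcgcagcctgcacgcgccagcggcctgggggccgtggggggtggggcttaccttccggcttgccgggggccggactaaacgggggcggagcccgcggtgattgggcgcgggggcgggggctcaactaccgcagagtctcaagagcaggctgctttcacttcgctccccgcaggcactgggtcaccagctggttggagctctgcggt
Bbc3: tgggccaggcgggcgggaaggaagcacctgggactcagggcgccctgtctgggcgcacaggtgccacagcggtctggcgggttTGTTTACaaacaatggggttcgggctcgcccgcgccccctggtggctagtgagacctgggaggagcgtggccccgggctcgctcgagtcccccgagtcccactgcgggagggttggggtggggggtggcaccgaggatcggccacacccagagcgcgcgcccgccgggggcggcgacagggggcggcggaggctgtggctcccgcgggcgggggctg

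Bcl2l11 encodes BIM, and 0 of its 5 probe sets passed in any contrast. Probe set 1456005_a_at had 4160.4, 7197 and 2963 in DKO, 3516, 5159 and 3093 in Il10_KO, 3509, 3792 and 3707 in Ebi3_KO, and 5024.5, 3444 and 4262 in WT. DKO replicate 2 was the highest array, and the spread within DKO covered the other genotypes. Probe set 1435448_at had 1775, 1941 and 2726 in DKO, 1607, 1936 and 2246 in Il10_KO, 2061, 2258 and 2415 in Ebi3_KO, and 2998, 1767 and 3199 in WT. Il10_KO minus WT was -0.42, with -0.89, 0.13 and -0.51 in the batches (adjusted p = 0.635 with batch).

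The other Bcl2l11 probe sets had signals of 34.3 to 118.1 (1426334_a_at), 226.6 to 692.2 (1435449_at) and 230.1 to 479.1 (1456006_at). Their Il10 averages were 0.38, 0.04 and -0.21, each with a 95% interval that held 0. With the batch mean removed, r between pairs of Bcl2l11 probe sets ran between -0.704 and 0.541 over the 12 arrays.

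Bad, whose protein is held in check by phosphorylation downstream of growth factors, had 2 tested probe sets. For 1416582_a_at the signals were 608, 412.5 and 529 in DKO, 585, 586 and 638 in Il10_KO, 492, 448 and 532 in Ebi3_KO, and 510.3, 387 and 437 in WT. All 3 Il10_KO arrays lay above all 3 WT arrays, 1 of the 24 family probe sets, beside 3.14% of all tested probe sets that lay above without overlap in that contrast. The difference was 0.43, with 0.19, 0.58 and 0.53 in the batches, and did not pass (adjusted p = 0.614 with batch). DKO minus WT was 0.20. The second probe set, 1416583_at, was at 78.7 to 321.4 with batch 2 lowest in every genotype, and its Il10_KO minus WT difference had the opposite sign, -0.34 (adjusted p = 0.808 with batch).

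Bbc3 encodes PUMA. Probe set 1423315_at had 782.5, 525 and 261 in DKO, 974, 652 and 338 in Il10_KO, 1205, 397 and 293 in Ebi3_KO, and 838, 331 and 387 in WT. Batch 1 was highest in every genotype (batch F test, adjusted p = 0.000324), and the genotypes overlapped. DKO minus WT was 0.00 with an interval of -0.52 to 0.52, and the Il10 average was 0.10.

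Pmaip1 encodes NOXA, the BH3-only partner of MCL1, and lies on chromosome 18. Probe set 1418203_at had 2516, 1620.2 and 511 in DKO, 1929, 1300.0 and 641.5 in Il10_KO, 1266, 559.6 and 311 in Ebi3_KO, and 308.5, 1124 and 413 in WT. In each batch both arrays without Il10 were above both arrays with it, a pattern whose share over all tested probe sets was not counted. The Il10 average was 1.09, or 2.13-fold, with 1.77, 0.85 and 0.65 in the batches. It had an SE of 0.472 without batch and 0.304 with it, and did not pass in either fit (adjusted p = 1.00 and 0.378). DKO minus WT was 1.25, with 2.95, 0.52 and 0.30 in the batches (adjusted p = 0.491 with batch).

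WT replicate 1, the array with low immediate-early genes, had the lowest Pmaip1 signal of all 12. Without it, DKO minus WT was 0.44 (adjusted p = 0.650 with batch) and the Il10 average was 0.68 (adjusted p = 0.123 with batch). Over the 22 alternatives with batch the Il10 average stayed between 0.68 and 1.33 and its adjusted p between 0.123 and 0.691.

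**Figure D4:**
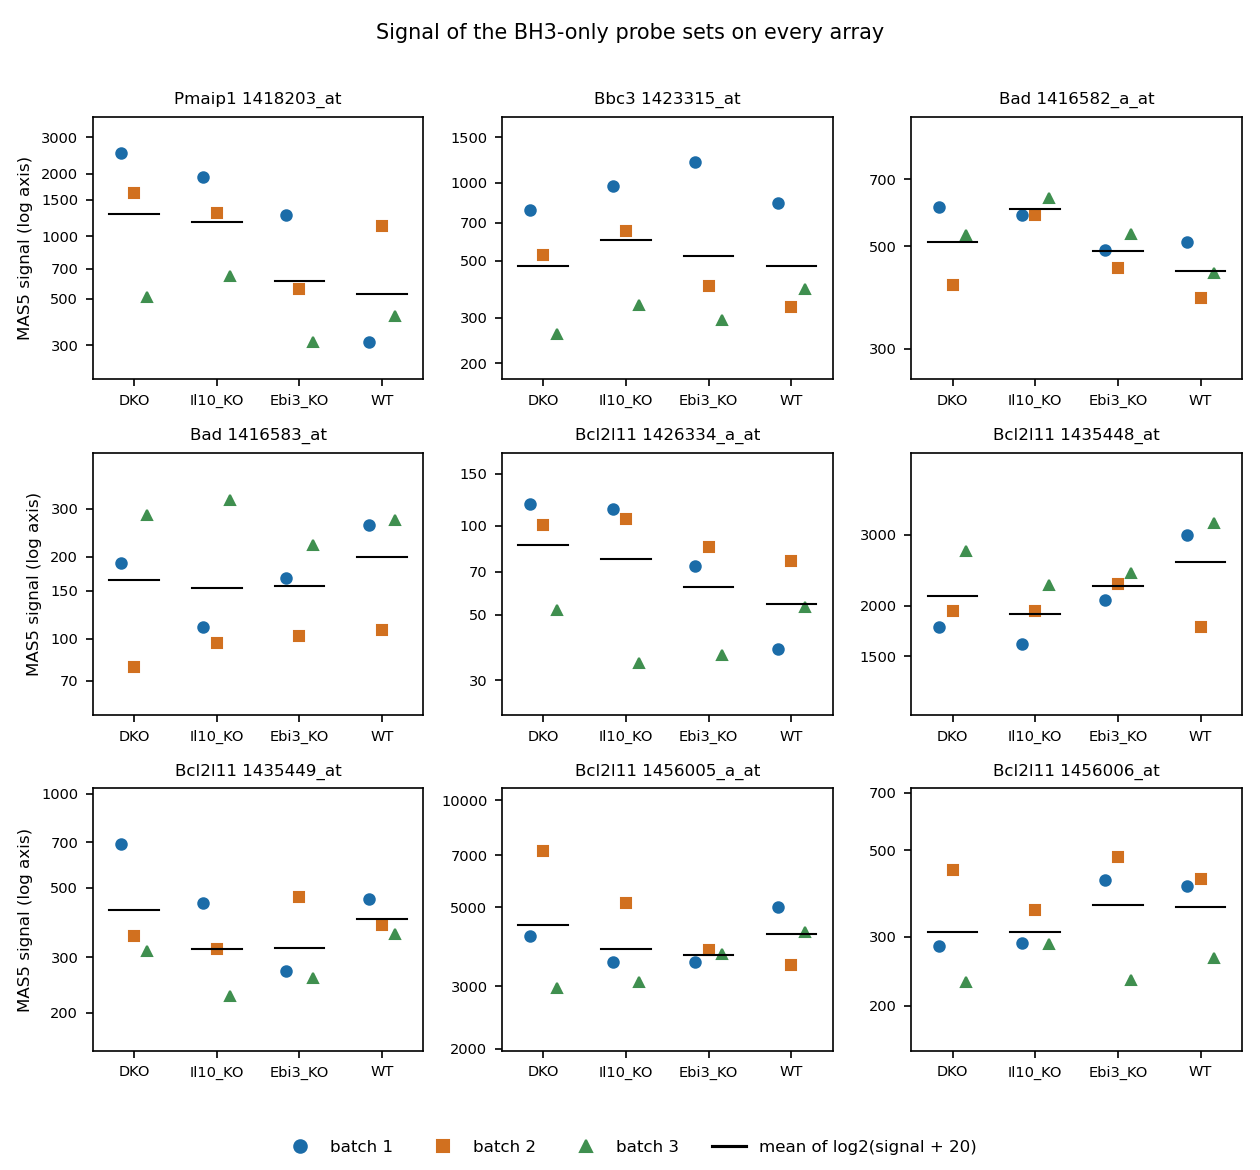
MAS5 signal (log axis) of the 9 tested BH3-only probe sets on each of the 12 arrays, by genotype; symbols give the batch and bars the mean of log2(signal + 20). For Pmaip1, WT replicate 1 has the lowest signal, 308.5, while batch 1 is highest in the other 3 genotypes.

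Ebi3 genotype made little difference that could be seen across the family. The Ebi3 averages of the 24 probe sets lay between -0.33 (Bcl2 1443837_x_at) and 0.16 (Pmaip1), and the lowest adjusted p was 0.994 with batch. In 5 of 24 the sign was the same in all 3 batches, beside 8 of 24 for the Il10 average. The share of all tested probe sets with the same sign was not counted, so neither count is read as a result about the family. Leaving out Bcl2 1443837_x_at, the Il10 averages of the other 23 ran between -0.34 and 1.09, and the lowest adjusted p with batch was 0.378.

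**Figure D5:**
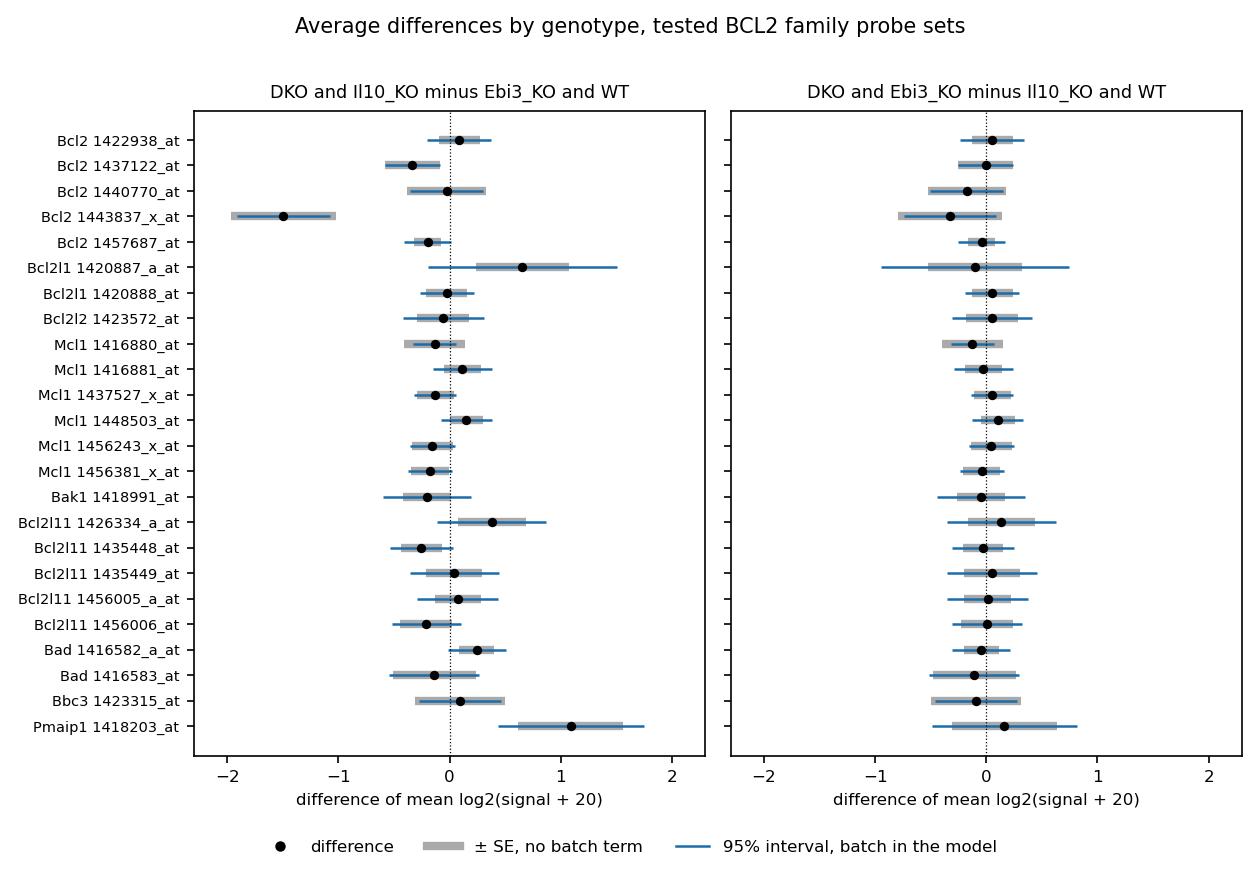
Average difference of log2(signal + 20) by Il10 genotype (left) and by Ebi3 genotype (right) for the 24 tested family probe sets; grey bars are ± SE without a batch term and blue lines the 95% interval with batch in the model. Bcl2 1443837_x_at at -1.49 and Pmaip1 at 1.09 lie farthest from 0 on the left, and the points on the right lie between -0.33 and 0.16.

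The wider pathway was described with 6 lists of 89 genes, of which 77 were measured, and 0 passed in any of the 8 contrasts in either fit (limma). At an unadjusted p of 0.05 with batch, 10 of the 77 passed in DKO against WT (13.0%, beside 8.25% of all tested probe sets) and 13 in the Il10 average (16.9%, beside 8.62%). In the fit without batch these counts were 1 and 2. Each list gene was taken by its tested probe set of highest mean signal. The shares over all tested probe sets include dim ones, so the compared sets are unlike. In DKO against WT 33 of the 77 were above 0 and 44 below, with a median of -0.05 beside 0.01 over all tested probe sets.

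By list, DKO minus WT values are given for the 2 genes of smallest p with batch. Among other BCL2 family members, 4 of 9 were above 0, with Bmf, a BH3-only gene, at -0.86 ± 0.399 (adjusted p = 0.490 with batch) and Bid, which links death receptors to mitochondria, at -0.25. In the mitochondrial death pathway 4 of 14 were above 0, with the channel gene Vdac1 at 0.32 and cytochrome c, Cycs, at -0.22. Among inhibitors of apoptosis 1 of 5 was above 0 and the median was -0.37, with Xiap, which blocks caspases, at -0.68 ± 0.193 (adjusted p = 0.106 with batch) and Birc6 at -0.37. Xiap was at -0.77, -0.68 and -0.59 in the batches.

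In cytokine survival signalling 12 of 21 were above 0, with the kinase Pim3 at 1.16 and Foxo3 at -0.30. Among p53 and its targets 8 of 13 were above 0, with the cell cycle inhibitor Cdkn1a at 1.33 ± 0.861 (adjusted p = 0.353 with batch) and Sesn2 at 0.87. Pim3 and Cdkn1a were at 3.03 and 2.62 in batch 1, which holds WT replicate 1, against 0.19 and 0.76 in batch 2 and 0.25 and 0.62 in batch 3. Among partners and regulators of BCL2 proteins 4 of 15 were above 0, with the calcium channel gene Itpr3 at -0.29 and the chaperone partner Bag3 at 0.90.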

How the data were processed

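RNA of 12 Treg samples was measured on Affymetrix arrays, 1 array a sample; per the labels' protocols 1 ug of total RNA went through biotin labelling in 2 cycles. The deposited values were read as the natural log of (MAS5 signal + 20), a scale taken from the values: once undone, low signals were multiples of 0.1 and the mean trimmed by 2% at each end was 500 on every array. MAS5 and Partek 6.4 are named in the submitters' processing notes, and settings are not given in the sources used here. Array medians were 59.5 to 89.3, and the number of arrays limits the precision.

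Signals were recovered and log2(signal + 20) was fitted with limma 3.58.1 (R 4.3.3; lmFit, eBayes with trend) over 31235 probe sets, with Benjamini-Hochberg adjustment over all of them and a threshold of 0.05. The filter left out 13802 and 64 are controls. Probe sets were named through GEO's platform annotation: 34945 with 1 symbol, 932 with several and 9160 with none. Groups came from the labels. The main fit left 8 residual degrees of freedom, and the fit with batch 6. The labels name the replicate number as the batch, so numbers pair arrays. Deviations from the group means correlated at 0.325 to 0.664 for the 18 same-numbered pairs. For pairs that differ in both number and genotype the range was -0.531 to -0.0204. Deviations within a genotype sum to 0, so part of this contrast in sign is fixed in advance. Methods were tested on simulated data.

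Named are all family probe sets, and of each pathway list the 2 genes of smallest p in DKO against WT with batch and any past the threshold. The members and lists were chosen with earlier results of these data known. Alternatives changed the offset, normalization, filter, moderation, batch term and the arrays used. Promoters and coordinates are RefSeq's (GRCm38.p6).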

Additional observations from a re-analysis of the deposited data

How the results depend on the processing

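Without batch, 0 family probe sets passed in any of the 8 contrasts under every offset, normalization, filter or omitted array tried. The replicate block (batch as a factor) gave 1 in DKO against WT, with 13 calls over all probe sets against 3 without it, and 1 in the Il10 average, with 20 against 4; it changed no other family call. The other settings combined with batch, apart from leaving out arrays, were chosen after seeing the data. DKO against WT then had 0 family calls under log2(signal + 5), the 60th percentile filter, no intensity trend, and without batch 2 or batch 3, and 0 to 1 when 1 array was left out. Il10_KO against WT had 0 to 1 with 1 array left out. The Il10 average had 0 without the trend, without batch 2 and without batch 3, and 0 to 1 with 1 array left out. The batch test called 7 family probe sets without batch 3, against 12, and 10 to 16 with 1 array left out. The Bcl2 pair test called 0 pairs without any 1 of the batches, where too few arrangements remain to pass, and 0 to 6 with 1 array left out. Where the construction does not show the cause, it was not tested. Of 192 family differences, 103 with batch and 121 without it changed sign under at least 1 alternative, so small ones have no settled direction. Signals near the filter level, as for Bcl2l1 1420887_a_at and Bcl2l11 1426334_a_at, limit what their differences show.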

Other observations

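Genes that describe the state of the Tregs were compared with the same lists, and 0 of them passed in any of the 8 contrasts (limma, either fit). Of 9 measured genes of dividing cells, the median was -0.16 in DKO against WT (2 above 0), -0.65 in Il10_KO against WT (1 above 0) and -0.36 in Ebi3_KO against WT (0 above 0). At an unadjusted p of 0.05 with batch, 0, 7 and 2 of the 9 passed in these contrasts, beside 8.25%, 7.68% and 5.31% of all tested probe sets. Their interaction was above 0 in 9 of 9, with a median of 0.85, and 6 passed unadjusted, beside 3.94%. These genes too were taken by the tested probe set of highest mean signal, unlike the shares over all tested probe sets. In the Il10 average, of 10 measured Treg identity genes 6 were above 0 (median 0.06), of 12 effector Treg genes 6 (0.01) and of 8 genes of resting or central T cells 3 (-0.10). Immediate-early genes were above 0 in 17 of 18 against WT in each knockout, with medians of 0.78 in DKO, 0.77 in Il10_KO and 0.67 in Ebi3_KO, and the WT group holds replicate 1, whose mean log2 level of these genes was 10.53. Between knockouts the medians were -0.10 in DKO against Ebi3_KO and -0.06 in DKO against Il10_KO. In DKO against WT Atf3 was at 2.50, with 5.39 in batch 1, 0.68 in batch 2 and 1.44 in batch 3, and Egr2 at 0.46. Satb1, a chromatin organiser of resting T cells, was at -0.50 (limma with batch, adjusted p = 0.417).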
